A study of Mus musculus with 56 samples.

Results

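Fatty acid oxidation was followed in mouse liver through 8 genes, Ppara, Pdk4, Cpt1a, Cpt2, Ehhadh, Acadm, Hadha and Hadhb. The genes were taken by name, with earlier results of these data known. All 8 are among the 25415 genes of the authors' gene table, of which 25266 could be tested. The table holds RNA sequencing of 56 livers from female C57BL/6J mice aged 9 weeks. The labels name no mutation or transgene. All animals received normal chow under 12 h of light and 12 h of dark and spent the last 7 days on food given in daytime only (daytime-restricted feeding, DRF) or at night only (the reference regimen, NRF). Livers were collected 0, 4, 8, 12, 16, 20 and 24 h after the lights went on (zeitgeber time, ZT), from 4 animals in each of the 14 groups, so each regimen has 28 libraries. The comparison asks whether the daily course of these transcripts follows the time of feeding or the light cycle, and whether their overall level differs between the regimens.

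In the fasted liver, fatty acids released from adipose tissue are burned by β-oxidation, and much of the resulting acetyl-CoA leaves the liver as ketone bodies. PPARα, encoded by Ppara, is the nuclear receptor that senses fatty acids and switches on most genes of this pathway. It binds DNA as a heterodimer with RXR at direct repeats of the half-site AGGTCA. CPT1A on the outer and CPT2 on the inner mitochondrial membrane pass long-chain acyl groups into the matrix through carnitine, and CPT1A is the step that malonyl-CoA blocks when food is plentiful. MCAD (Acadm) starts β-oxidation of medium-chain acyl-CoA, HADHA and HADHB together form the mitochondrial trifunctional protein that completes the cycle for long chains, and EHHADH is the bifunctional enzyme of the peroxisome. PDK4 phosphorylates and silences pyruvate dehydrogenase, which spares glucose while fat is burned. None of the 8 genes encodes an enzyme of ketone body synthesis itself, and the ketone body genes are taken up with the rest of the pathway.

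Values are scaled counts, which are counts rebuilt from the deposited values and put on a common library scale on which the tested genes of a library sum to between 849143 and 1057240. They are not corrected for gene length and so compare libraries, not genes. Tests were run with limma on log2(scaled count + 1) over all 25266 genes, and a gene is said to pass, rise or fall where the Benjamini-Hochberg adjusted p was under 0.05. A 24-h rhythm was tested through the cosine and sine of time, and its size is given as the peak-to-trough difference on the log2 scale. Peak times come from a cosine fitted to scaled counts and carry the standard error (SE) of the fit. In whole tissue, fewer cells of a type and less RNA per cell cannot be told apart.

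The livers of a group agreed closely, with correlations across genes between 0.982 and 0.9947 for pairs within a group. The labels give no batch or sequencing date. Hepatocyte markers summed to between 97368 and 157393 scaled counts per library. Of the 5 used (Ttr could not be rebuilt), Cps1 had a higher mean under DRF and Apoa1 and Serpina1c a lower one. None of the 5 markers each of Kupffer cells, sinusoidal endothelium, stellate cells and cholangiocytes differed in mean between regimens. Of the 4 adipocyte markers only Cfd is listed, at no more than 0.0657 in any library, and of the 4 pancreas markers only Cela1, at no more than 4.72 and lower under DRF. Of 5 blood markers, 3 (Hba-a1, Hbb-bs and Alas2) had a higher mean under DRF, where the summed level ranged from 376 to 1325, against 299.7 to 824 under NRF, and none of the 5 was at 0 throughout. The part of blood RNA in the differences between regimens described here was not tested. The rank correlation between exon length and a library's deviation from the mean differed between the first and last times, averaging -0.124 at ZT0 and 0.174 at ZT24 under DRF and -0.183 and 0.181 under NRF, and its part in the results was not tested beyond a fit with that trend removed.

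Under DRF, 6 of the 8 genes carried a 24-h rhythm (Ppara, Pdk4, Cpt1a, Cpt2, Ehhadh and Hadhb), as did 37.7% of all genes tested. Under NRF, 4 did (Ppara, Pdk4, Cpt1a and Acadm), against 38.3% of all genes. The rhythm differed between the regimens, counted from lights on, for 6 genes (all but Hadha and Hadhb), against 38.6% of all genes. Counted from food onset, it differed for 3 (Pdk4, Ehhadh and Hadhb), against 34.1% of all genes. The order of these counts rests on the values used, since on the deposited values 4 genes differed counted from lights on and 6 counted from food onset. Food onset was set at lights on under DRF and at lights off under NRF. The exact feeding hours were not given in the sources used here. The median peak-to-trough size of the difference was 0.55 (log2) over the 8 genes when counted from lights on and 0.35 when counted from food onset, against 0.27 and 0.26 over all genes.

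**Figure D1:**
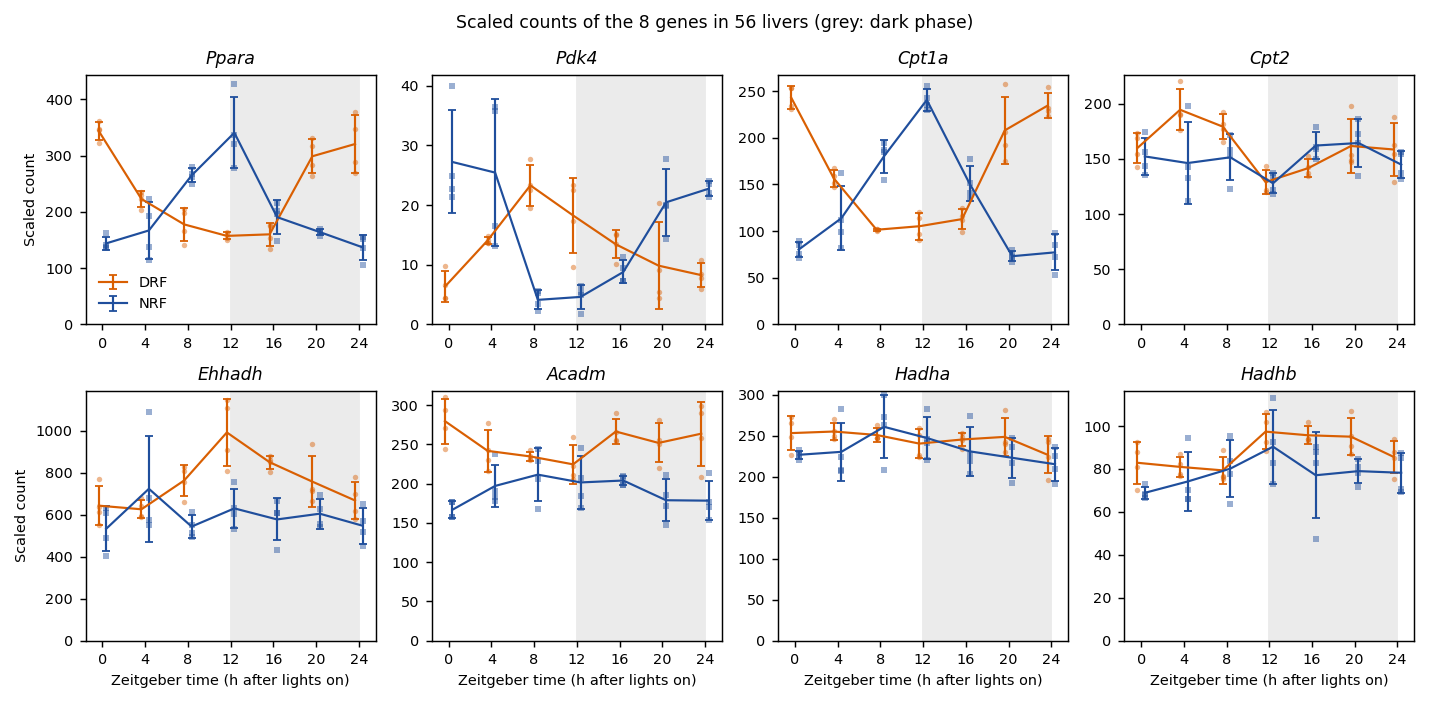
Scaled counts of each gene (y axis, linear, from 0) against zeitgeber time in h (x axis) for DRF (orange circles) and NRF (blue squares). Small symbols are single livers, lines join the means of 4 livers, bars are SD and grey marks the dark phase. Ppara and Cpt1a were highest at ZT0 in DRF livers and at ZT12 in NRF livers, Pdk4 ran the other way, and Hadha stayed between 191 and 299.6 in all 56 livers.

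Ppara, the fatty acid receptor, lies at chr15:85734983-85802819 (GRCm38, plus strand). Its highest group under DRF was ZT0, with scaled counts of 348, 361, 322 and 345 in the 4 livers (344 ± 16.3, SD, n = 4). At the same clock time the 4 NRF livers held 162, 138, 135 and 141 (144 ± 12.1, SD, n = 4). The groups did not overlap, and every DRF liver was above every NRF liver. At ZT12 the order was turned. The DRF livers held 162, 163, 154 and 150.4 and the NRF livers 278, 321, 428 and 336, again with no overlap. DRF minus NRF (log2) was 1.25 ± 0.14 (SE) at ZT0 and -1.09 ± 0.14 at ZT12, with adjusted p of 7.02e-09 and 1.64e-07 (limma).

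The fitted peak of Ppara was at ZT23.3 ± 0.41 (SE) under DRF and at ZT11.0 ± 0.53 under NRF, a shift of 11.7 ± 0.67 h. The rhythm difference counted from lights on had a peak-to-trough size of 2.31 (adjusted p = 1.35e-15, limma). Counted from food onset it was 0.11 (adjusted p = 0.917). In both regimens Ppara was highest at food onset, and its 3 lowest groups lay 8 to 16 h later. The highest group exceeded the lowest 2.19-fold under DRF (ZT0 over ZT12) and 2.49-fold under NRF (ZT12 over ZT24). The rhythm-adjusted mean, the level about which the fitted cosine swings, was 0.10 ± 0.06 higher on the log2 scale under DRF and did not pass (adjusted p = 0.38). Leaving out any replicate number, or any other setting tried, kept the lights-on difference of Ppara past the threshold.

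Cpt1a, the gate of the carnitine shuttle, lies at chr19:3322334-3385733 (GRCm38, plus strand) and followed the course of Ppara. At ZT0 the DRF livers held 253, 234, 231 and 254 scaled counts and the NRF livers 84.8, 75.8, 70.8 and 88.9. At ZT12 the DRF livers held 113, 121, 96.4 and 89.9 and the NRF livers 229, 256, 235 and 242. The lowest DRF liver at ZT0 was well above the highest NRF liver, and at ZT12 the lowest NRF liver was well above the highest DRF liver. The DRF mean was 3.04-fold higher at ZT0 (1.59 ± 0.14, log2 ± SE, adjusted p = 3.56e-12, limma), and the NRF mean was 2.29-fold higher at ZT12 (-1.19 ± 0.14, adjusted p = 7.64e-09).

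Of the 8 genes Cpt1a had the smallest adjusted p for the rhythm difference counted from lights on (1.62e-21, limma, peak-to-trough 3.03 on the log2 scale). Its fitted peaks were at ZT23.1 ± 0.33 under DRF and ZT11.0 ± 0.33 under NRF, 11.9 ± 0.46 h apart (SE). Counted from food onset, the rhythm difference was 0.33 and did not pass (adjusted p = 0.225). At its DRF trough, ZT8, the livers held 101, 102, 102 and 99.6 scaled counts, a very narrow spread. At the matching point under NRF, 8 h after food onset, the livers held 72.5, 66.8, 72.8 and 79.9. These did not overlap, and DRF was 0.47 ± 0.14 higher (log2 ± SE, adjusted p = 0.0187, limma). At 12 h after food onset the difference was 0.43 ± 0.12 (adjusted p = 0.027), so the trough of Cpt1a was shallower under DRF. Both calls ended without replicate number 1 (adjusted p = 0.118 at 8 h and 0.0925 at 12 h) or number 2 (0.0935 and 0.177), that at 8 h also on the deposited values (0.42) and that at 12 h without number 4 (0.107).

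The Cpt1a promoter is shown because Cpt1a is a gene with a rhythm difference whose promoter holds the half-site AGGTCA, though no direct repeat of it. The bases from 250 to 17 before its RefSeq start (chr19:3323051-3323284, GRCm38.p6, plus strand, 234 bases, 5′ to 3′) were read from the RefSeq table, with the half-site in capitals.
Cpt1a promoter: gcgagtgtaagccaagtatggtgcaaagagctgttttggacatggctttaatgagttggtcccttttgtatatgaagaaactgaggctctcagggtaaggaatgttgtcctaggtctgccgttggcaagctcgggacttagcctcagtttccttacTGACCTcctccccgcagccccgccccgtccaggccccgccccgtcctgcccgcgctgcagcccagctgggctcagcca
The capitals TGACCT are the half-site AGGTCA read on the opposite strand, and they lie 94 to 89 bases before the start. Promoters of all 8 genes were matched by symbol, and the full 250 bases before each start were searched on both strands. The stretches printed leave out bases that lie in annotated exons. AGGTCA was found in those of Cpt1a and Acadm, and 14% of 32851 promoter windows of that length hold it. None of the 8 windows held the E-box CACGTG (in 6.02% of all windows), the D-box TTATGTAA (0.819%), the cAMP element TGACGTCA (1.55%), or a pair of half-sites in direct repeat with 1 base between (DR1), allowing 2 mismatches (3.24%). These are matches of letters in a short window and mark no binding.

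Pdk4, the kinase that holds back pyruvate dehydrogenase, lies at chr6:5483351-5496309 (GRCm38, minus strand). It ran opposite to Ppara and Cpt1a in both regimens. At ZT8 the DRF livers held 22.5, 27.8, 23.4 and 19.5 scaled counts, while the NRF livers held 5.60, 5.25, 2.23 and 3.33. At ZT0 the DRF livers held 9.79, 4.34, 4.48 and 6.67 and the NRF livers 21.3, 40.0, 22.7 and 24.9. The groups did not overlap at either time, and the regimen with the higher values changed. The DRF mean was 5.68-fold higher at ZT8 (2.30 ± 0.33, log2 ± SE, adjusted p = 1.71e-06, limma). The NRF mean was 4.31-fold higher at ZT0 (-1.96 ± 0.33, adjusted p = 1.57e-05).

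Pdk4 peaked at ZT9.74 ± 0.61 (SE) under DRF, late in the feeding phase, and at ZT0.0287 ± 0.61 under NRF, at its end, a shift of 9.72 ± 0.86 h. It had the largest swing of the 8 genes in both regimens, 1.56 (log2, peak to trough, adjusted p = 5.01e-05, limma) under DRF and 2.58 (adjusted p = 1.57e-07) under NRF. The rhythm difference counted from lights on was 4.06 (adjusted p = 1.16e-12). Unlike Ppara and Cpt1a, it also passed when counted from food onset, at 1.30 (adjusted p = 0.0139), a call that was lost without replicate number 1 (adjusted p = 0.183) or number 4 (0.0568). Hour by hour the food-aligned difference changed sign between 8 and 12 h after food onset and again between 16 and 20 h. It was 0.61 ± 0.29 at 0 h, 0.64 ± 0.33 at 4 h, 0.21 ± 0.33 at 8 h and -0.48 ± 0.29 at 12 h (log2 ± SE). None of these passed (adjusted p from 0.19 to 0.781, limma), though the groups did not overlap at 4 h. At 16 h after food onset the NRF livers were still at 35.7, 13.2, 36.4 and 16.4, the DRF livers at 10.1, 15.2, 14.9 and 13.5, and the groups overlapped (-0.76 ± 0.33, adjusted p = 0.109, limma). At 20 h the NRF livers were at the ZT8 values above and the DRF livers held 9.17, 20.4, 4.35 and 5.44. Of these, 1 DRF liver was far above the other 3, the groups overlapped slightly, and DRF was 0.92 ± 0.33 higher (adjusted p = 0.0464), a call that ended with any replicate number left out (adjusted p from 0.0605 to 0.28). Values of Pdk4 are low next to the pseudocount of 1, so these log2 differences understate the change.

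Acadm encodes medium-chain acyl-CoA dehydrogenase and lies at chr3:153922357-153944632 (GRCm38, minus strand). It showed the clearest difference in overall level. Over all times the DRF livers ranged from 206 to 310.2 (median 252) and the NRF livers from 147 to 246 (median 185), and 28 of 28 DRF livers were above the NRF median. The rhythm-adjusted mean was 0.37 ± 0.04 higher under DRF (log2 ± SE, adjusted p = 3.8e-08, limma). At ZT0 the DRF livers held 310.2, 271, 244 and 294 scaled counts and the NRF livers 157, 176, 157 and 176, with no overlap and a DRF mean 1.68-fold higher (0.74 ± 0.12, adjusted p = 6.64e-06). At ZT8 the DRF livers held 243, 235, 229.9 and 231 and the NRF livers 229, 244, 167 and 205. The groups overlapped there, and the difference of 0.16 ± 0.12 did not pass (adjusted p = 0.469).

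The rhythm of Acadm was shallow. Its fitted peaks were at ZT21.6 ± 1.37 (SE) under DRF, where the 24-h rhythm did not pass (adjusted p = 0.0628, limma), and at ZT10.5 ± 1.38 under NRF, where it did (adjusted p = 0.0456). Both lay near the threshold. The DRF rhythm passed on the deposited values (adjusted p = 0.0148) and the NRF rhythm did not (0.145), and the NRF call also ended under 4 further settings that kept all replicates. The rhythm difference counted from lights on was 0.51 (adjusted p = 0.00225), and it did not pass on the deposited values (adjusted p = 0.0925). Counted from food onset it was 0.09 (adjusted p = 0.873), but on the deposited values that difference passed (adjusted p = 0.0107, limma). With the feeding phases matched, Acadm was higher under DRF at 0, 8, 12 and 16 h after food onset, by 0.43 ± 0.10, 0.40 ± 0.12, 0.38 ± 0.10 and 0.44 ± 0.12 (log2 ± SE, adjusted p from 0.00579 to 0.0225, limma). Each of these 4 calls ended without 2 or 3 of the replicate numbers, each left out in turn, and that at 8 h also on the deposited values (adjusted p = 0.861).

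The Acadm promoter is the other one that holds the half-site, in capitals here, 249 to 244 bases before the RefSeq start. It is printed 5′ to 3′ for chr3:153944644-153944893 (GRCm38.p6, minus strand, 250 bases).
Acadm promoter: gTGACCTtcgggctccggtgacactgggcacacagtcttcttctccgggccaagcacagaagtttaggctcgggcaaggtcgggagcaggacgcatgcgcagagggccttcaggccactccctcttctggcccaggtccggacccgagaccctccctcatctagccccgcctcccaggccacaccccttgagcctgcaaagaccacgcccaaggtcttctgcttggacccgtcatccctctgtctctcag

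Ehhadh, the peroxisomal bifunctional enzyme, lies at chr16:21761287-21787807 (GRCm38, minus strand). Under DRF it was highest at ZT12, the end of the feeding phase, where the livers held 1107, 1144, 807 and 905 scaled counts. Under NRF the ZT12 livers held 602, 529, 755 and 631. Every DRF liver was above every NRF liver at ZT12, and the DRF mean was 1.57-fold higher (0.65 ± 0.16, log2 ± SE, adjusted p = 0.00288, limma), though this call ended without replicate number 2 (adjusted p = 0.103). With feeding phases matched the gap was wider. At 12 h after food onset the NRF livers, at ZT0 and ZT24 together, had a mean of 539 against 991 under DRF, a difference of 0.88 ± 0.14 (adjusted p = 7.36e-05).

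The 24-h rhythm of Ehhadh passed under DRF, with a peak at ZT13.6 ± 0.67 (SE) and a swing of 0.58 (log2, adjusted p = 3.47e-05, limma). Under NRF the fitted swing was 0.11 (adjusted p = 0.874) and the peak time, ZT7.54 ± 4.88, was too loose to place. The rhythm difference passed counted from lights on (0.56, adjusted p = 0.0262) and from food onset (0.62, adjusted p = 0.0102). The first was lost on the deposited values (adjusted p = 0.259) and without replicate number 2 (0.231) or 3 (0.15), the second without number 1 (0.059), 2 (0.11) or 4 (0.0796). The rhythm-adjusted mean was 0.38 ± 0.06 higher under DRF (adjusted p = 2.17e-05), and 26 of 28 DRF livers were above the NRF median. The NRF livers at ZT4 held 548, 572, 1090.4 and 679.9, so 1 of them stood far above the rest. That liver was the highest of its group for all 8 genes. Without it no call on the 8 genes was lost, and 3 were gained, Ehhadh at 16 h after food onset (0.51 on the log2 scale, adjusted p = 0.017, limma), Cpt2 at 0 h (0.31, adjusted p = 0.0376) and Acadm at ZT4 (0.39, adjusted p = 0.0193).

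Cpt2, the inner carnitine palmitoyltransferase, lies at chr4:107903981-107923610 (GRCm38, minus strand). Under DRF it was highest at ZT4, with 176, 191, 189.9 and 221 scaled counts, and lowest at ZT12, with 131, 143, 120.1 and 122. The NRF livers held 143, 112, 198 and 132 at ZT4 and 137, 134, 118 and 122 at ZT12. The groups nearly coincided at ZT12 and overlapped at ZT4 through the single high NRF liver, and DRF was 0.44 ± 0.12 higher at ZT4 (log2 ± SE, adjusted p = 0.00653, limma). That call ended without replicate number 2 (adjusted p = 0.0672) or 4 (0.173). The 24-h rhythm passed under DRF (0.42, adjusted p = 0.00463, peak at ZT3.96 ± 0.87), and under NRF the swing was 0.19 (adjusted p = 0.364). On the deposited values the DRF rhythm was lost (adjusted p = 0.229) and the NRF rhythm passed (0.014). The DRF rhythm was also lost without replicate number 4 (0.08). The rhythm difference counted from lights on was 0.54 (adjusted p = 0.0128), lost without replicate number 4 (adjusted p = 0.218). Counted from food onset it was 0.37 (adjusted p = 0.0974). That difference passed on the deposited values (adjusted p = 0.0152, limma) and without replicate number 2 (0.0443).

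Hadha and Hadhb, the α and β subunits of the trifunctional protein, stand head to head on chromosome 5, at chr5:30118304-30155162 (minus strand) and chr5:30155248-30184593 (plus strand), with 85 bases between them. That gap is shown because it lies before the start of both genes (chr5:30155163-30155247, GRCm38.p6, plus strand, 5′ to 3′), and it held none of the motifs searched.
Hadha-Hadhb gap: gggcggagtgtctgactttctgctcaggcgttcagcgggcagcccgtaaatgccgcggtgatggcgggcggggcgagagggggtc
Hadha varied least of the 8 genes. The DRF livers ranged from 196 to 282 (median 247) and the NRF livers from 191 to 299.6 (median 227). The ranges overlapped throughout, and Hadha passed in neither regimen's 24-h rhythm (0.04, adjusted p = 0.883 under DRF and 0.22, adjusted p = 0.0977 under NRF, limma), in neither rhythm difference (adjusted p = 0.309 and 0.123) and not in the mean (0.07 ± 0.04, adjusted p = 0.301). The rhythm difference counted from food onset passed on the deposited values (adjusted p = 0.0137, limma) and with the length trend removed (0.0367). The NRF rhythm of Hadha passed in a single fit over the 56 libraries (0.0337). Of its exon bases 75, or 0.859%, overlap Garem2 on the other strand, and whether counting used strand is not given in the sources used here.

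The rhythm of Hadhb passed under DRF, with a peak at ZT16.3 ± 0.75 (SE) and a swing of 0.32 (log2, adjusted p = 0.0015, limma). Under NRF the swing was 0.20 (adjusted p = 0.412), and it passed without replicate number 3 (adjusted p = 0.0082), the number of the 1 low NRF liver at ZT16. Whether Hadha and Hadhb differed from each other was not tested. At ZT16 the DRF livers held 92.9, 94.2, 102 and 93.9 scaled counts and the NRF livers 82.8, 87.9, 47.5 and 90.2. All DRF livers were above all NRF livers, of which 1 was far below the others, and the difference of 0.35 ± 0.13 did not pass (adjusted p = 0.0707). The mean was 0.18 ± 0.05 higher under DRF (adjusted p = 0.0233). The rhythm difference counted from food onset was 0.45 (adjusted p = 0.0351), lost with the length trend removed (0.0509) and without replicate number 1 (0.139), 2 (0.277) or 4 (0.178), and counted from lights on it was 0.28 (adjusted p = 0.315). Reads of Hadhb may be shared with its processed pseudogene Gm13910, so its values are uncertain to that extent.

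**Figure D2:**
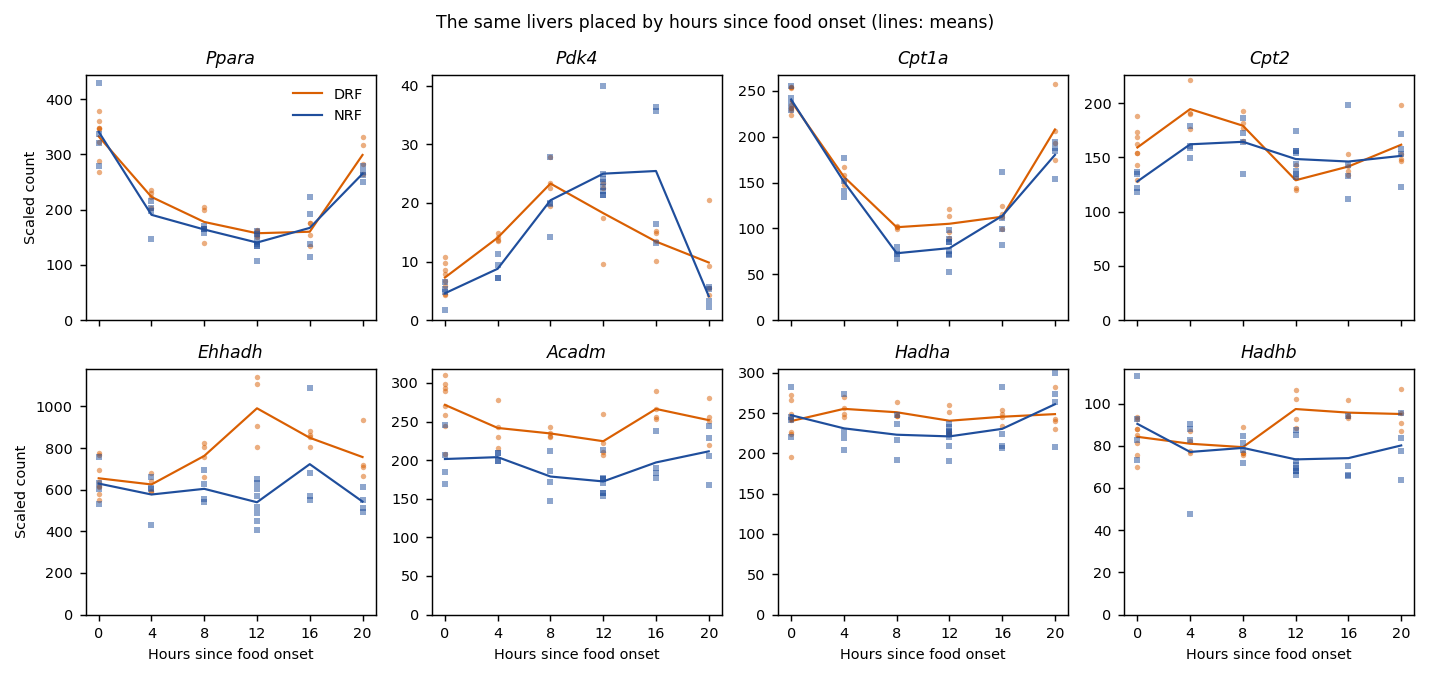
The same scaled counts (y axes, linear, from 0) placed by hours since food onset (x axis), with ZT0 and ZT24 of a regimen at the same point. Symbols are single livers and lines join means (DRF orange, NRF blue). The Ppara lines of both regimens nearly coincide, while Cpt1a lies higher under DRF at 8 and 12 h, Acadm lies higher under DRF throughout and Ehhadh is furthest apart at 12 h, with means of 991 under DRF and 539 under NRF.

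Taken time by time, the genes called between regimens changed with the hour. At ZT0, 4 of 8 passed (Ppara, Cpt1a and Acadm higher under DRF, Pdk4 lower), against 16.1% of all genes. At ZT4, 3 passed, all higher under DRF (Ppara, Cpt1a and Cpt2), against 20.3%. At ZT8 and ZT12, 4 passed each time, with Pdk4 and Ehhadh higher and Ppara and Cpt1a lower, against 13.0% and 15.2%. Only 3 passed at ZT16 (Ehhadh and Acadm higher, Cpt1a lower), against 15.1%. At ZT20 and ZT24 the calls were those of ZT0, against 13.8% and 14.1%. The differences of Ppara and Cpt1a changed sign between ZT4 and ZT8 and again between ZT16 and ZT20, and that of Pdk4 did so in the other direction. Every liver of 1 regimen lay beyond every liver of the other for 4 of the 8 genes at ZT0, where 19.5% of all genes were so separated, for 4 at ZT8 (18.1%), ZT12 (16.2%), ZT16 (15.9%) and ZT20 (17.6%), for 3 at ZT24 (16.8%) and for 0 at ZT4 (22.4%). The number called at ZT4 ran from 0 without replicate number 2 to 6 without number 3. At ZT8 the Ehhadh call was lost without any 1 of the 4 numbers (adjusted p from 0.0825 to 0.12, limma) and on the deposited values (0.091), and the Ppara call without number 4 (0.0763). At ZT16 the deposited values gave 1 call, and each of the 3 calls was lost without at least 1 number. At ZT20 the Pdk4 call was lost without number 3 (0.174) or 4 (0.208) and the Acadm call without number 2 (0.0502).

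Matched by hours since food onset, fewer genes passed, and all of those that passed were higher under DRF. The count was 1 at 0 h (Acadm, against 5.68% of all genes), 0 at 4 h (14.6%), 2 at 8 h (Cpt1a and Acadm, 11.6%), 4 at 12 h (Cpt1a, Ehhadh, Acadm and Hadhb, 4.75%), 2 at 16 h (Acadm and Hadhb, 17.2%) and 2 at 20 h (Pdk4 and Ehhadh, 16.4%). At 4 h, where 2 genes had an unadjusted p under 0.05 (limma; Cpt2 and Acadm), the differences ranged from 0.06 (Cpt1a) to 0.64 (Pdk4) on the log2 scale. Ppara differed by no more than 0.24 (log2) at any matched hour. Without the NRF liver at ZT4 that stood high, 2 genes passed at 0 h (Acadm and Cpt2) and 3 at 16 h. On the deposited values the counts were 0 at 8 h, 4 at 16 h and 7 at 20 h. Ehhadh at 20 h was lost without any 1 of the replicate numbers (adjusted p from 0.0558 to 0.169, limma). Hadhb was lost at 12 h without number 1, 2 or 4 (adjusted p from 0.129 to 0.237), and at 16 h without the same numbers (0.174 to 0.249), with the length trend removed (0.0623) and with the replicate block (0.0535).

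**Figure D3:**
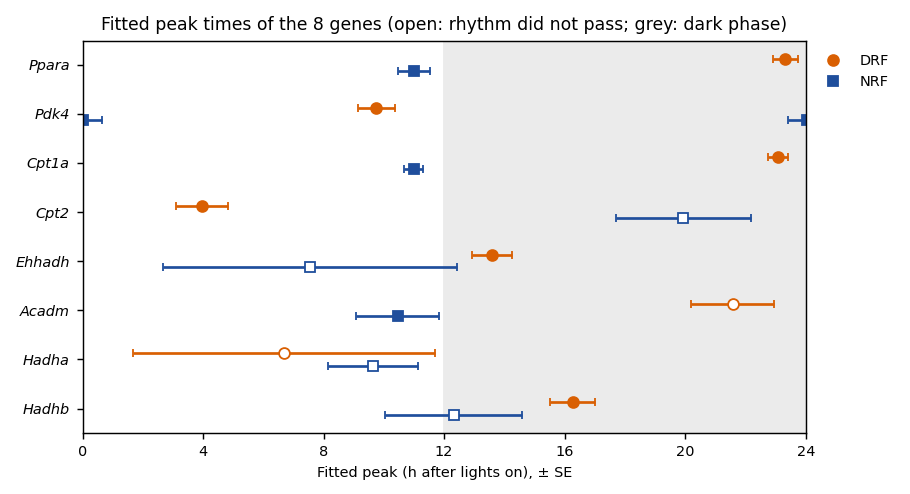
Fitted peak time (x axis, h after lights on) of each gene under DRF (orange circles) and NRF (blue squares) with SE bars. Filled symbols mark genes whose 24-h rhythm passed, open ones those whose rhythm did not, and grey is the dark phase. Ppara and Cpt1a peak near ZT23 under DRF and ZT11 under NRF, while Pdk4 peaks at ZT9.74 and ZT0.0287.

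A 12-h component beside the 24-h rhythm passed for Ppara (adjusted p = 0.0371, limma) and Cpt2 (adjusted p = 0.0275) under DRF, against 6.66% of all genes, and for none under NRF, where 0.831% of all genes passed and 1 of the 8, Ppara, had an unadjusted p under 0.05 (limma). Both DRF calls were lost on the deposited values and with any replicate number left out. Between the first and last time point, which are the same clock time a day apart, none of the 8 genes differed under DRF (3.25% of all genes did) or under NRF (8.05%), also at an unadjusted p under 0.05 (limma, 0 genes each). On the deposited values, 6 differed under NRF. The largest of these differences was 0.37 ± 0.33 (log2, ZT24 minus ZT0) for Pdk4 under DRF (adjusted p = 0.639).

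In rhythm-adjusted mean, 4 of the 8 genes passed, all higher under DRF, where 6.79% of all genes passed, 1048 of them higher and 668 lower. Beside Acadm and Ehhadh these were Cpt1a (0.19 ± 0.06, adjusted p = 0.0341, limma) and Hadhb. The median difference over the 8 genes was 0.18 (log2), against -0.0018 over all genes. The calls of Cpt1a and Hadhb each ended without replicate number 1, 2 or 4, that of Cpt1a also under median-of-ratios scaling (adjusted p = 0.0524) and that of Hadhb on the deposited values (0.0637). Those of Acadm and Ehhadh held in each of these settings.

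Between genes, levels can be compared only per length. Over the 56 livers Ehhadh averaged 226 ± 53.7 (SD) scaled counts per kb of exon, the highest of the 8. Cpt2 (64.9 ± 10.0), Ppara (57.5 ± 20.8) and Acadm (56.6 ± 10.6) followed and did not differ beyond their spread. Cpt1a (34.5 ± 14.7) and Hadha (27.5 ± 2.78) came next with overlapping spreads, then Hadhb (12.6 ± 1.88) and, lowest, Pdk4 (4.21 ± 2.59). For Cpt1a the exon length that fitted the deposited values was 4300 bases, against 7642 in the annotation, so its place in this order is less certain. The annotated lengths merge all exons of a gene and can exceed the length of a single transcript. They were 8730 bases for Hadha and 6595 for Hadhb, against 2391 for Cpt2 and 2981 for Ehhadh. The low places of Hadha and Hadhb are therefore less certain too.

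Across the 56 livers, the likeness of patterns was measured by Pearson's r of log2 values, which share the time course and the regimens, and is given as a description. Ppara and Cpt1a were most alike (r = 0.913), and Pdk4 was opposed to both (r = -0.685 and -0.704). Ehhadh was most like Hadhb (0.712) and Acadm most like Hadha (0.646), a partner of the same mitochondrial pathway. Among 13739 genes, the ones most like Cpt1a were Gm14097 (0.958), annotated as antisense to another gene, and Acot12 (0.945), a thioesterase for acetyl-CoA. For Ppara they were Unc79 (0.916) and Rab43 (0.905), and for Pdk4 Lnx2 (0.854) and Gfod2 (0.845). Ehhadh was like Acaa1b (0.819), a peroxisomal thiolase of the same chain. Acadm was most like Acadl (0.874), the long-chain dehydrogenase, and Cyp4a14 (0.852). Hadha was most like Ech1 (0.828) and Chrna2 (0.814), Hadhb like its pseudogene Gm13910 (0.913) and Acadvl (0.828), and Cpt2 like Iba57 (0.747) and Cpox (0.735).

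Calls on the other genes of the pathway are given here and below with all replicates and the scaled counts only, not under the alternative settings. The lists of these genes were also chosen with earlier results of these data known, so the shares of all genes beside them are a description. Of mitochondrial β-oxidation, 12 genes were tested (Acaa2 could not be rebuilt). In mean, 10 were higher under DRF and 0 lower (6.79% of all genes passed), with a median difference of 0.18 (log2). In rhythm, 5 differed counted from lights on, a share near the 38.6% of all genes, and 9 counted from food onset (34.1% of all genes). The 10 were Echs1, Hadh, Acadl, Acadvl, Etfa, Etfdh, Acads, Eci1, Acad11 and Decr1, and they ranged from 0.13 (Acad11 and Decr1) to 0.26 (Echs1, enoyl-CoA hydratase). Eci2, an enoyl-CoA isomerase, had the smallest adjusted p in rhythm (5.54e-15, limma), with its highest group at ZT0 under DRF (34.9 ± 3.75, SD, n = 4) and at ZT12 under NRF (42.5 ± 5.06), as Ppara had. Etfdh, which passes electrons from the dehydrogenases to ubiquinone, was next (9.84e-08), with peaks at ZT17.5 ± 0.97 and ZT6.71 ± 0.54.

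In the peroxisome, 6 of 11 genes were higher in mean under DRF and 0 lower (median 0.19, log2; 6.79% of all genes passed). In rhythm, 6 differed counted from lights on (38.6% of all genes) and 11 of 11 counted from food onset (34.1%). Acaa1b, a thiolase, rose most in mean (0.49 ± 0.07, log2 ± SE, adjusted p = 4.12e-07, limma), though reads shared with its near copy Acaa1a make both uncertain. Crot, which makes medium-chain acyl-carnitines for export from the peroxisome, had the smallest adjusted p in rhythm (1.02e-12). It was highest at ZT4 under NRF (988 ± 246, SD, n = 4) and at ZT12 under DRF (664 ± 112), so 16 h and 12 h after food onset.

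Among the carnitine genes, 3 of 4 differed in rhythm counted from lights on (38.6% of all genes), 0 when counted from food onset (34.1%), and 1 was higher in mean (6.79%). Slc22a5, the cell's carnitine importer, had fitted peaks at ZT0.0715 ± 0.59 under DRF and ZT12.0 ± 0.79 under NRF (rhythm difference adjusted p = 3.72e-11, limma). Slc25a20, the inner-membrane translocase that lies between CPT1A and CPT2, peaked at ZT2.56 ± 1.26 and ZT12.2 ± 0.94 (adjusted p = 4.13e-05) and was 0.19 ± 0.05 higher in mean (adjusted p = 0.0112). Of the 3 genes that set malonyl-CoA, 3 differed in rhythm counted from lights on (38.6% of all genes), 1 counted from food onset (34.1%) and 0 in mean (6.79%). Acaca, the carboxylase that makes malonyl-CoA for synthesis, peaked at ZT8.02 ± 0.95 under DRF and ZT19.1 ± 0.76 under NRF, and Mlycd, which breaks malonyl-CoA down, at ZT22.4 ± 0.49 and ZT8.87 ± 0.87. Acacb, the mitochondrial carboxylase whose malonyl-CoA blocks CPT1A, peaked at ZT14.4 ± 0.54 under DRF and ZT20.3 ± 0.72 under NRF, a shift of 5.84 ± 0.90 h. Beside these stand ZT23.1 and ZT11.0 for Cpt1a and ZT9.74 and ZT0.0287 for Pdk4.

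For ketone bodies, 3 of 5 genes of synthesis and export differed in rhythm counted from lights on (38.6% of all genes) and 2 counted from food onset (34.1%). Slc16a1, the transporter through which ketone bodies leave the cell, had the smallest adjusted p (1.05e-13, limma). It peaked at ZT12.2 ± 0.32 under DRF and ZT23.9 ± 0.71 under NRF.

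Of 8 genes of fatty acid activation and uptake, 4 differed in rhythm counted from lights on (Acsl4, Slc27a2, Acsl5 and Acsl3, against 38.6% of all genes) and 5 counted from food onset (34.1%). In mean, 2 were higher under DRF and 1 lower (6.79%). Cd36, a fatty acid receptor and carrier, was 0.55 ± 0.07 higher (log2 ± SE, adjusted p = 1.67e-07, limma). Fabp1, the cytosolic fatty acid binding protein of liver, was lower (-0.44 ± 0.14, adjusted p = 0.0442, limma), near the threshold. Its DRF livers ranged from 276 to 699 (median 474) and its NRF livers from 280.0 to 2224 (median 521). The NRF group of Fabp1 at ZT16 spread widely (900 ± 883, SD, n = 4). Of 7 partners of PPARα, 5 differed in rhythm counted from lights on (38.6% of all genes) and 3 counted from food onset (34.1%). In mean 1 of the 7, Ppargc1a, was higher (6.79% of all genes passed; 0.34 ± 0.07, adjusted p = 0.00145). Ppargc1b, a coactivator, had the smallest adjusted p in rhythm (1.44e-13), followed by Creb3l3 (1.93e-12), a transcription factor of the fasted liver, and Rxra (1.35e-10), the DNA-binding partner. Creb3l3 peaked at ZT23.2 ± 0.40 under DRF and ZT10.0 ± 0.81 under NRF, beside ZT23.3 and ZT11.0 for Ppara.

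Among the enzymes that set pyruvate dehydrogenase, 3 of 6 differed in rhythm counted from lights on (38.6% of all genes), 2 counted from food onset (34.1%), and 3 were higher in mean (6.79%). Pdk2, the other main kinase of liver, had its highest DRF group at ZT0 (131 ± 18.0, SD, n = 4) and its highest NRF group at ZT8 (104 ± 8.51), with a rhythm difference adjusted p of 2.92e-10 (limma), and was 0.24 ± 0.07 higher in mean (adjusted p = 0.0192). Its fitted peaks, ZT22.2 ± 0.53 and ZT8.84 ± 0.72, lay closer to those of Ppara than to those of Pdk4. The phosphatase Pdp2 peaked at ZT23.8 ± 0.73 and ZT11.3 ± 0.74 (adjusted p = 7.64e-09). Of 8 PPARα targets outside oxidation, 6 differed in rhythm counted from lights on (38.6% of all genes), 2 counted from food onset (34.1%), and 3 were higher in mean (Cyp4a14, Cyp4a10 and Acot2, against 6.79%). Angptl4, an inhibitor of lipoprotein lipase, had the smallest adjusted p in rhythm (2.23e-10) with peaks at ZT19.0 ± 0.52 under DRF and ZT9.32 ± 0.75 under NRF. Cyp4a14 was 0.92 ± 0.13 higher in mean (adjusted p = 1.93e-06), but Cyp4a10 and Cyp4a14, like Acot1 and Acot2, are near copies whose reads may have been split between them.

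**Figure D4:**
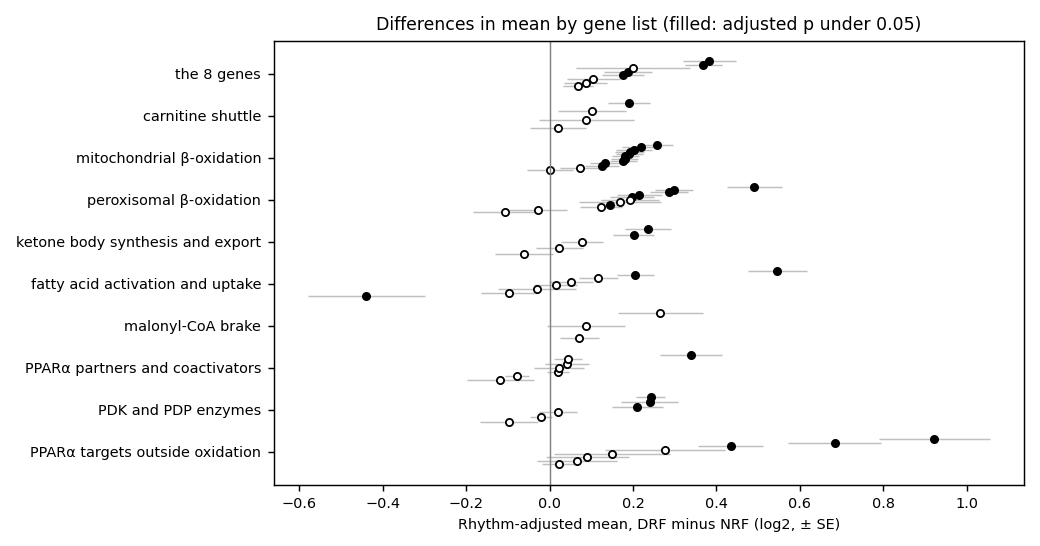
Difference in rhythm-adjusted mean, DRF minus NRF (x axis, log2, with SE bars), for the 8 genes and for each list of pathway genes (rows). Filled points passed (adjusted p under 0.05, limma). Most filled points lie to the right of 0, with 10 of 12 in mitochondrial β-oxidation, and Fabp1, at -0.44, is the filled point to the left.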

How the data were processed

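Total RNA from 56 mouse livers was sequenced as strand-specific, rRNA-depleted libraries (a label field names polyA RNA instead), and per the submitters' processing notes CASAVA 1.8 and featureCounts 1.5.0-p3 were used with builds mm10 and GRCm38.p6. The aligner and the strand setting of the counting are not given in the sources used here. The gene table deposited by the authors is headed TPM, but its unit was treated as a score, since each value times exon length followed the natural log of 1 plus a whole count times a library factor. That relation was inverted with GENCODE vM21 exon lengths (22248 genes) or a length searched in the values (2160 genes), 858 genes could not be judged and kept the annotated length, and 149 of 25415 were left out. Lengths on 3 chromosomes differed from the annotation as a rule. Of rebuilt counts between 1001 and 20000, 99.9035% were within 0.05 of a whole number, as were 100% of those from 1 to 10. Libraries held 304 to 723 counts per unit of the common scale, and the deposited values summed to between 995320 and 997990. Over the scaled total of a library (at least 849143), that many counts per unit comes to far more than the average reads per sample that the paper states. The rebuilt counts are thus not numbers of reads, and no count model was run. The tests fixed for linear values were kept and applied to log2(scaled count + 1). A minimum mean deposited value of 0.1 removed 0 genes.

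limma 3.58.1 (R 4.3.3) was fitted over 25266 genes, per regimen for rhythms (24-h cosine and sine, plus 12-h terms for the 12-h component) and over all 56 libraries for differences between regimens, with Benjamini-Hochberg adjustment and a threshold of 0.05. Group contrasts used the 14 groups. The script was tested on simulated data first. Groups came from the labels, and replicate numbers name different animals: deviations of libraries sharing a number correlated by 0.00466 on average (from -0.358 to 0.319), so the numbers did not pair them. The members and lists were chosen with earlier results of these data known. All members and the list genes with the smallest adjusted p of the rhythm difference are named; list genes named for their mean level were picked after their values were seen. Genes alike in pattern were taken from the 2 with the highest r per member. Promoters were read from RefSeq (GRCm38.p6). Alternatives were the deposited values, median-of-ratios scaling, a pseudocount of 0.1, other filters, removal of a length trend, other rhythm tests, a replicate block and each replicate number left out. Transcript and circular RNA tables were not used. Some results on list genes are not reported here.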

Additional observations from a re-analysis of the deposited data

Results flagged for a closer look

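The 24-h rhythm differed between the regimens, counted from lights on, for Cpt1a (adjusted p = 1.62e-21, limma), Ppara (1.35e-15), Pdk4 (1.16e-12), Acadm (0.00225), Cpt2 (0.0128) and Ehhadh (0.0262). These are tests of the difference itself.

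In 5 of the 112 sets of 4 livers (8 genes in 14 groups), 1 liver stood apart from the other 3 by Dixon's criterion. Chance flags about 1 in 20 such sets. The scaled counts of the livers that stood apart were 197.9 for Cpt2 under DRF at ZT20, 263.4 for Hadha under DRF at ZT8, 101.8 for Hadhb under DRF at ZT16, 88.88 for Hadhb under DRF at ZT8 and 94.3 for Hadhb under NRF at ZT4. The last is the NRF liver that was highest of its group for all 8 genes. The single low Hadhb value under NRF at ZT16 (47.5) did not pass the criterion.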

How the results depend on the processing

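On the 8 genes, 1727 single results under alternative settings kept their direction and side of the threshold, 102 lost a call, 41 gained one and 23 peak times or shifts moved. In 3 the sign turned, all for ZT24 minus ZT0 under NRF on the deposited values (Ppara 0.0845, Cpt2 0.0886 and Hadha 0.0858 on the log2 scale). The lights-on rhythm differences of Ppara, Pdk4 and Cpt1a and the mean differences of Acadm and Ehhadh passed in every setting. The cause of the other changes was not tested.

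The deposited values, which compress high counts, changed most. On them, members called went from 2 to 0 for the 12-h component under DRF, 6 to 4 for the lights-on and 3 to 6 for the food-aligned rhythm difference, 3 to 1 at ZT16, 2 to 0 at 8 h, 2 to 4 at 16 h and 2 to 7 at 20 h after food onset, and 0 to 6 for ZT24 minus ZT0 under NRF. All genes called went from 1682 to 555 and from 210 to 46 for the 12-h component under DRF and NRF, from 1435 to 873 at 0 h after food onset, and from 822 to 1669 and 2034 to 5945 for ZT24 minus ZT0 under DRF and NRF. Peak shifts there were 4.36 h for Acadm, 10.0 h for Ppara, 10.6 h for Cpt1a and 11.1 h for Pdk4. Among Ppara, Cpt1a and Pdk4, the shift of Pdk4 was thus the largest there and the smallest on scaled counts. With the length trend removed, 1 member kept a 12-h call under DRF, 2 were called at 0 h and 1 at 16 h after food onset. Median-of-ratios scaling gave 2 at 0 h.

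With the replicate block, 1 member was called at 16 h and 1 at 20 h after food onset (2 each without it). The block ended 4 single calls (12-h Ppara under DRF, adjusted p = 0.0518, limma; 24-h Acadm under NRF, 0.0581; Hadhb at 16 h, 0.0535; Pdk4 at 20 h, 0.0519) and added 1 (12-h Cpt1a under DRF, 0.0367). The numbers mark different animals.

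Leaving out each replicate number in turn, or the single NRF liver at ZT4 (an alternative chosen after seeing the data), gave these ranges. Members called ran from 0 to 2 for the 12-h component under DRF, 2 to 4 for the mean, 0 to 3 for the food-aligned rhythm difference, 0 to 6 at ZT4, 2 to 4 at ZT8, 1 to 3 at ZT16, and after food onset 0 to 2 at 0 h, 0 to 2 at 8 h, 1 to 4 at 12 h, 0 to 3 at 16 h and 0 to 2 at 20 h. Genes called ran from 389 to 1682 and 41 to 197 for the 12-h component under DRF and NRF, 750 to 1705 for the mean, 3266 to 5105 at ZT4, 2012 to 3336 at ZT8, 2496 to 3894 at ZT12, 2273 to 3880 at ZT16, 2280 to 3516 at ZT20 and 2238 to 3595 at ZT24. After food onset they ran from 676 to 1477 at 0 h, 1520 to 3757 at 4 h, 1183 to 3044 at 8 h, 325 to 1244 at 12 h, 2156 to 3767 at 16 h and 2314 to 4205 at 20 h. For ZT24 minus ZT0 they ran from 139 to 876 under DRF and 178 to 2624 under NRF. Leaving out a number removes 14 libraries, so fewer are tested. Pdk4 had the lowest scaled counts of the 8 genes, so the pseudocount weighs most on its log2 values.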
